A study of Arabidopsis thaliana with 6 samples.

Results

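Of 22746 probe sets measured in Arabidopsis rosettes, 73 (0.321%) were highest in plants given paclobutrazol (PBZ), lowest in plants given gibberellin (GA) and in between in control plants, with no overlap between the arrays of the 3 groups. Each probe set reports 1 transcript or a few similar ones through several short probes, whose joint reading is a linear intensity here. The 73 were chosen from these same values, on the scale of log2(intensity + 10), on which all log2 differences below are given. A probe set was taken when both PBZ arrays lay above both control arrays and both control arrays above both GA arrays. The group means further had to differ by at least 0.3 between PBZ and control, by at least 0.3 between control and GA and by at least 0.8 between PBZ and GA, and the PBZ mean intensity had to be at least 30. These conditions were met by 87 probe sets, of which 14 were left out by gene name or family, among them the gibberellin receptor gene GID1B, XERICO, PYK10 and genes of the UGT glycosyltransferases. The order of the groups and the sizes of the steps are therefore a description of how the set was made. No p-value is given for a member. How many members passed a test across all probe sets is given only as counts, also under other settings, from which nothing is read.

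Gibberellins are plant hormones that promote cell expansion and stem and leaf growth. The hormone binds the GID1 receptors, which then capture DELLA proteins, repressors of growth, and the F-box protein SLY1 marks these for destruction. Paclobutrazol blocks an early oxidation in gibberellin synthesis, so that plants stay compact, while GA3 is an active gibberellin that can be applied from outside. Plants lower the transcripts of some genes for hormone synthesis and perception when gibberellin is plentiful and raise them when it is scarce.

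The plants were accession Col-0 carrying 35S:HF-RPL18B, a FLAG-tagged copy of the ribosomal protein RPL18B under the broadly active 35S promoter, and PBZ, GA and control plants shared this transgene. They grew in soil with 16 h of light at 22 °C and 8 h of dark at 16 °C. PBZ plants were watered on day 14 with 10 mL of a solution of 50 mg/L, or 0.5 mg per pot. GA plants received 1 mL of 50 µM GA3 as a spray every other day, and control plants had no treatment and are not described as watered or sprayed with a blank solution. Whole rosettes were collected on day 27 by the sample titles, while another label of the same samples says day 25. Each group had 2 arrays, called biological replicates in the labels, which say nothing further of their origin; the number of arrays limits the precision. Gibberellin content is not among the values analysed here, so the groups are named by treatment throughout. In whole rosettes, fewer cells of a type and less RNA per cell cannot be told apart.

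Median intensities of the 6 arrays were 32.4 to 33.9, and 26.8% to 29.4% of their values lay under 10. Pearson correlations across probe sets, which are not independent replicates, ran from 0.981 to 0.988 for arrays of a group and from 0.967 to 0.986 for arrays of different groups. The median difference over all 22746 probe sets was 0.025 for PBZ against control, -0.021 for GA against control and 0.047 for PBZ against GA. Among markers of the leaf, the summed intensity of the 3 measured mesophyll genes (RCA, LHCB4.1 and LHCB4.2, of photosynthesis) was 12536 and 12491 in PBZ, 12139 and 11652 in GA and 13418 and 11477 in control arrays, so that the control pair spanned the others. The root hair gene EXPA7 stayed between 2.5 and 12.4, the meristem gene CLV3 between 0.6 and 9.4, and the summed guard cell genes MUTE, FMA and SPCH between 16.9 and 38.3. SWEET11, a sugar carrier of the phloem, had 1434 and 1204 in PBZ, 1141 and 1119 in GA and 1187 and 797 in control arrays. None of the markers listed for xylem and for flowers had a probe set that names them.

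The order PBZ above control above GA, before any condition on size, was seen in 957 probe sets (4.21%). Its mirror image, GA above control above PBZ, was seen in 755 (3.32%). The other 4 orders of non-overlapping groups held fewer. PBZ above GA above control was seen in 399 (1.75%), control above GA above PBZ in 388 (1.71%), control above PBZ above GA in 227 (0.998%) and GA above PBZ above control in 205 (0.901%). The size conditions reversed this order of the first pair, since the mirrored rule, with nothing left out, was met by 230 probe sets (1.01%) and the rule itself by 87 (0.382%). None of these counts was tested against another.

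The members were mostly dim to moderate in brightness. Their mean intensities had a median of 110 in PBZ (31.5 to 2618), 31.5 in GA (7.15 to 715) and 46.6 in control rosettes (18.1 to 980). By array, the member median was 111 and 106 in PBZ, 27.8 and 33.8 in GA and 44.4 and 50.1 in control. A mean of 500 or more was reached by 7 members in PBZ, 2 in GA and 4 in control, and the GA mean lay under 10 in 6 members, whose differences the added 10 compresses most. In log2 terms the members lay 0.33 to 3.21 above control in PBZ (median 0.66) and 0.3 to 1.05 below control in GA (median -0.47), and PBZ exceeded GA by 0.8 to 3.86 (median 1.16).

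The step from control to PBZ was the larger of the 2 steps in 55 of 73 members (75.3%), and in 133 of the 230 probe sets of the mirrored rule (57.8%). The pseudocount, the constant added before log2, shortens the lower step most. That is the GA step in the members and the PBZ step in the mirrored rule, so these percentages are not directly comparable. Over the members, median PBZ minus control and GA minus control were 0.75 and -0.58 with a pseudocount of 1. With one of 32 they were 0.52 and -0.31, so the PBZ step stayed the larger by median. The share of the PBZ minus GA difference that lay between PBZ and control ran from 26.7% to 84.7%, with a median of 61.5%. In 39 members this share was over 60%, in 26 it was from 40% to 60% and in 8 it was under 40%; these limits were set after the values were seen. The members with the largest PBZ share included AT2G43620, with 90.3 and 124.1 in PBZ, 20.9 and 24.9 in GA and 30.3 and 32 in control arrays, where the GA arrays lay just under the controls and PBZ far above them. The named members under 40% were AT5G40540, AT5G44500 and AT2G31945. AT2G31945 had 26.6 and 36.6 in PBZ, 7.9 and 7.6 in GA and 24.8 and 18.1 in control arrays, so that it was the GA pair that stood apart from the other arrays. PBZ exceeded control by 0.4, or by 0.23 without PBZ replicate 2 and 0.25 without control replicate 2.

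**Figure D1:**
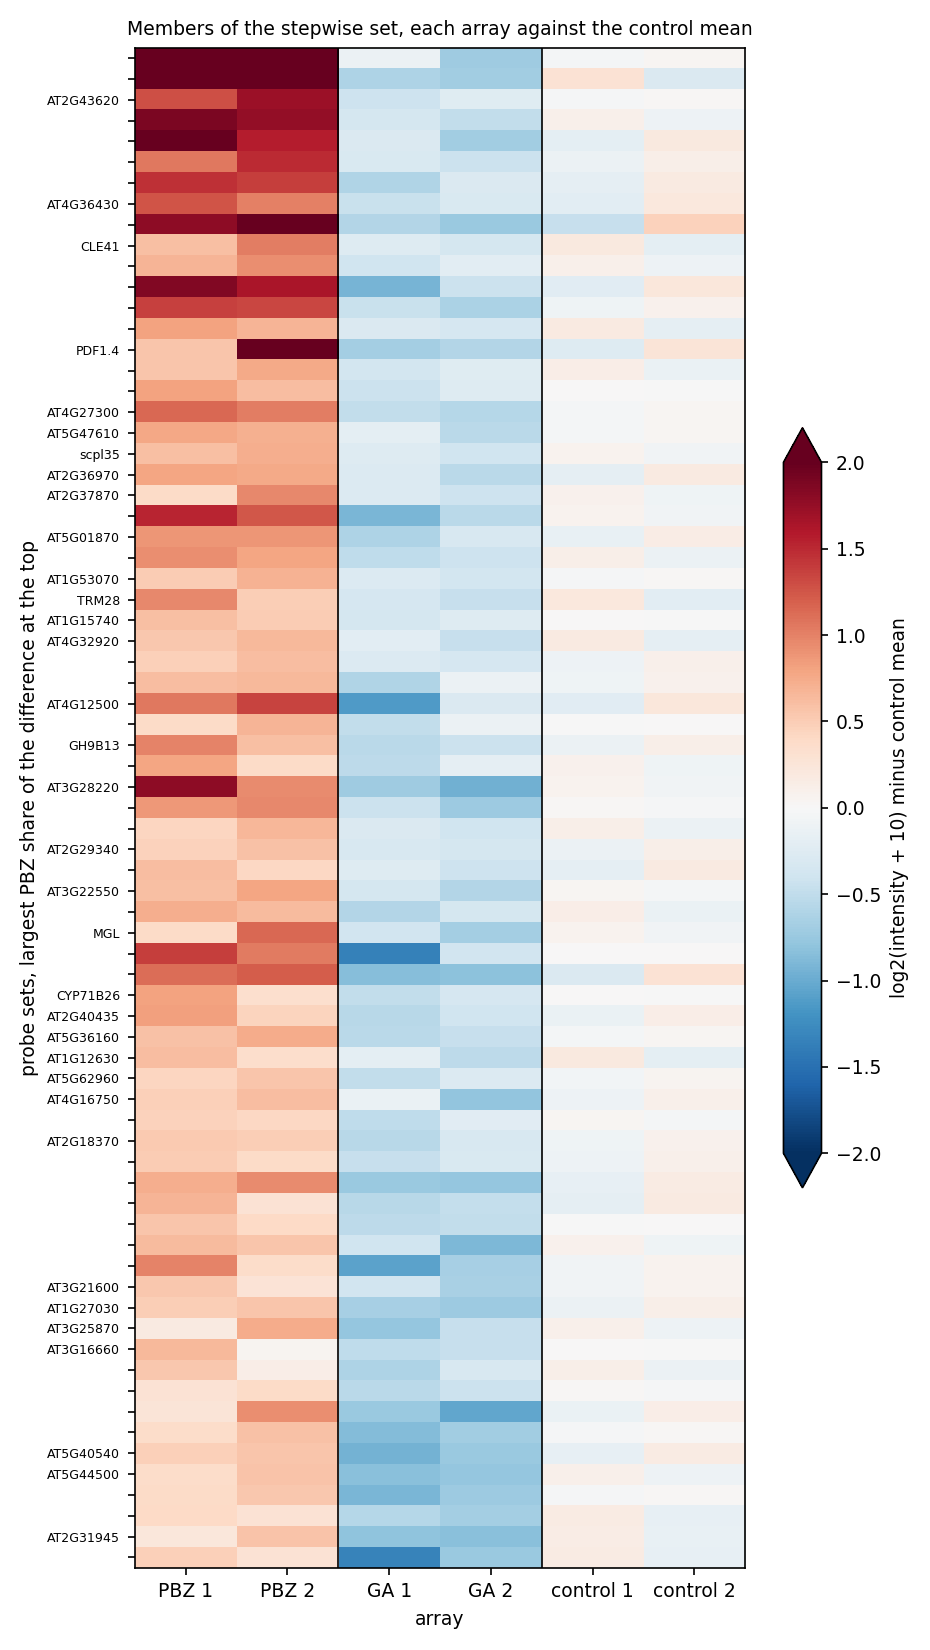
Heat map of the 73 members (rows) in the 6 arrays (columns), coloured by log2(intensity + 10) minus the mean of the control arrays, with colours cut at 2 and -2. Rows run from the largest share of the difference lying between PBZ and control (84.7%) at the top to the smallest (26.7%) at the bottom, and rows with no label are unnamed probe sets. Red deepens towards the top in the PBZ columns and blue towards the bottom in the GA columns.

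**Figure D2:**
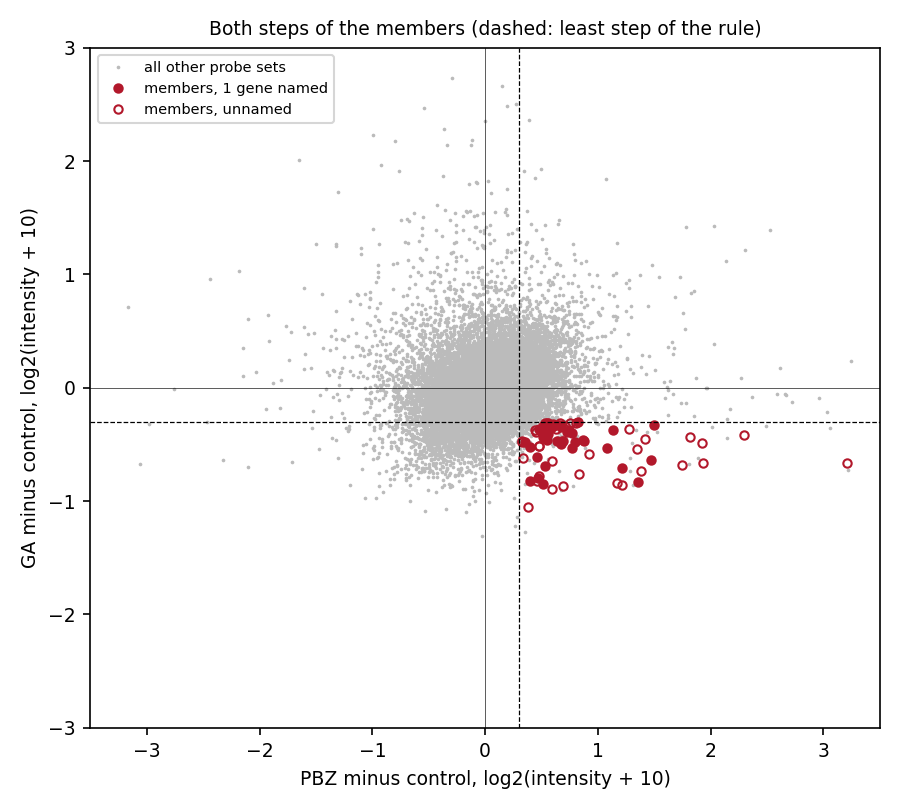
Scatter of PBZ minus control (x axis) against GA minus control (y axis), both in log2(intensity + 10), with 1 point per probe set; 5 probe sets lie outside the plotted range. Filled red points are the 34 members that name 1 gene, open red points the 39 unnamed members and grey points all other probe sets, and dashed lines mark the least step of 0.3. The members occupy the lower right corner, spread further along the PBZ axis (0.33 to 3.21) than along the GA axis (-1.05 to -0.3).

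Set against the spread between replicates, the 2 steps were unequally wide. The gap between the nearest arrays of PBZ and control had a median of 0.42, and that between the nearest arrays of control and GA a median of 0.25, while the widest difference between the 2 replicates of a group had a median of 0.36. The PBZ to control gap was wider than the widest replicate difference in 47 members and the control to GA gap in 25. Both gaps were wider in 21 members, and neither in 22. The gap was under 0.1 in 4 members between PBZ and control and in 12 between control and GA, so the placing of control above GA rests on small differences for those 12. The widest replicate difference was between the PBZ arrays in 31 members, between the GA arrays in 19 and between the control arrays in 23.

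Members lay close to every threshold. The smallest PBZ minus control steps inside were 0.332 (261448_at) and 0.334 (263498_at), and the largest outside were 0.263 (258618_at) and 0.24 (251169_at). For control minus GA, CLE41 at 0.304 and 248200_at at 0.307 were just inside, and 261866_at at 0.294 and AT3G22104 at 0.29 just outside. The peptide gene CLE41, described below, was thus the member closest to missing the lower step. For PBZ minus GA, 261448_at at 0.801 and 253828_at at 0.81 were inside, and 260593_at at 0.795 and AT1G16350 at 0.761 outside. For the PBZ mean intensity, 253828_at at 31.45 and AT5G44500 at 31.6 were inside, and AT2G18360 at 26.55 and 249101_at at 26.25 outside. Probe sets that missed 1 condition of size and met the rest numbered 5 for PBZ minus control, 23 for control minus GA, 17 for PBZ minus GA and 24 for the PBZ mean.

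Of the 73 members, 34 named 1 gene each and 39 are unnamed in the annotation used here, against 13513 with 1 gene, 503 with several and 8730 unnamed among all probe sets. Of the 34 genes, 7 had a symbol of their own and 27 a locus code alone, for which no role is given. Families were left out by symbol or synonym. A gene of the UGT, XTH or EXPA families with a locus code alone would thus have stayed in the set. So would one on an unnamed probe set. The member AT2G36970 may be such a UGT gene, but its annotation here carries no UGT symbol or synonym, so it was kept. The named members had a median PBZ minus GA difference of 1.12 (0.83 to 2.2), and the unnamed ones a median of 1.26 (0.8 to 3.86). The brightest and the most different members were thus unnamed, and 1 named member, CLE41, had a PBZ mean of 500 or more.

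The members with a symbol belong to unrelated families. They are a defensin, an enzyme of methionine breakdown, a cytochrome P450, a carboxypeptidase-like protein and a cell wall hydrolase. The others are a peptide hormone and TRM28, of a family whose studied members have a part in organising microtubules. PDF1.4 (AT1G19610), a plant defensin of the small antimicrobial proteins that plants secrete, had 30.6 and 133.5 in PBZ, 7.2 and 8.3 in GA and 13.0 and 23.1 in control arrays. Its PBZ arrays differed from each other by 1.82 on the log2 scale, more than the PBZ to control step of 1.47 (SE 0.56), so its size in PBZ is known poorly. The lower PBZ array lay above the higher control array, as the rule required of every member. The step above control was 2.38 without PBZ replicate 1 and 0.56 without PBZ replicate 2. PBZ exceeded GA by 2.11 (1.19 without PBZ replicate 2), and GA lay 0.64 below control, where both groups were close to the added 10; GA minus control was -0.37 without control replicate 2.

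Among the members with a symbol, the enzymes outside the cell wall were MGL, CYP71B26 and scpl35. All were at their highest in PBZ, with arrays that did not overlap between groups, as the rule required. MGL (AT1G64660), a methionine gamma-lyase that splits methionine and feeds isoleucine synthesis, had 37.5 and 71.0 in PBZ, 17.9 and 12.8 in GA and 28.2 and 24.7 in control arrays. PBZ exceeded GA by 1.3 (SE 0.26), a step of 0.77 above control and one of 0.53 below it. The PBZ arrays were further apart (0.77) than the gap to control (0.314), and without PBZ replicate 2 the step above control was 0.38. CYP71B26 (AT3G26290), a cytochrome P450 of the CYP71B subfamily, had 187.7 and 132.9 in PBZ, 71.1 and 80.2 in GA and 104.3 and 103.0 in control arrays, a PBZ minus GA difference of 0.97 (SE 0.18). The control arrays agreed closely with each other and lay apart from both other pairs; without PBZ replicate 1 PBZ exceeded control by 0.33 in place of 0.56. The serine carboxypeptidase-like gene scpl35 (AT5G08260) had 412.8 and 450.5 in PBZ, 222.6 and 201.3 in GA and 283.7 and 254.6 in control arrays. Its PBZ minus GA difference was 0.99 (SE 0.13), and the widest replicate difference, 0.151 between the control arrays, was narrower than either gap between groups (0.526 and 0.186).

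Among the members with a symbol, cell walls, the cytoskeleton and vascular signalling were each represented once, the cytoskeleton by family alone. GH9B13 (AT4G02290), of glycosyl hydrolase family 9 (the endoglucanases that cut glucan chains of the wall), averaged 168 ± 33.8 in PBZ, 62.8 ± 3.75 in GA and 91.8 ± 11.7 in control rosettes (intensity, SD, n = 2 each). The arrays read 191.7 and 143.9 in PBZ, 60.1 and 65.4 in GA and 83.6 and 100.1 in control, a PBZ minus GA difference of 1.28 (SE 0.18). The GA pair was close together and the PBZ pair the most spread. TRM28 (AT5G03670), of the TON1 recruiting motif family, whose studied members act with the TON1 complex that organises cortical microtubules, had 48.4 and 32.6 in PBZ, 13.9 and 12 in GA and 24.8 and 16.1 in control arrays. PBZ exceeded GA by 1.12 (SE 0.21), and the replicate difference of 0.455 in PBZ was wider than the gap to control, 0.292. GA minus control was -0.39, or -0.19 without control replicate 1 and -0.6 without control replicate 2.

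CLE41 (AT3G24770) encodes a peptide made in the phloem that is perceived by the receptor kinase PXY on neighbouring cambium cells, where it promotes division and holds back xylem formation. It was the brightest member with a gene name, with 471.1 and 634.4 in PBZ, 254.7 and 237.3 in GA and 352.5 and 265.1 in control arrays. Group means were 553 ± 115, 246 ± 12.3 and 309 ± 61.8 (PBZ, GA and control, intensity, SD, n = 2 each). PBZ exceeded control by 0.82 and GA by 1.12 (SE 0.2), while GA lay 0.3 below control. The lower control array came within 0.056 of the higher GA array, so that its position between the other 2 groups rests on a narrow gap, and GA minus control was -0.1 without control replicate 1 and -0.5 without control replicate 2. CLE44 (AT4G13195), which encodes the same peptide, had 75.6 and 98.5 in PBZ, 69.9 and 78.2 in GA and 56.9 and 87.3 in control arrays, which overlap, and a PBZ minus GA difference of 0.2. The phloem gene SWEET11, whose values are given above, lay 0.22 higher in PBZ than in GA and 0.43 higher in PBZ than in control, and its part in the CLE41 values was not tested.

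**Figure D3:**
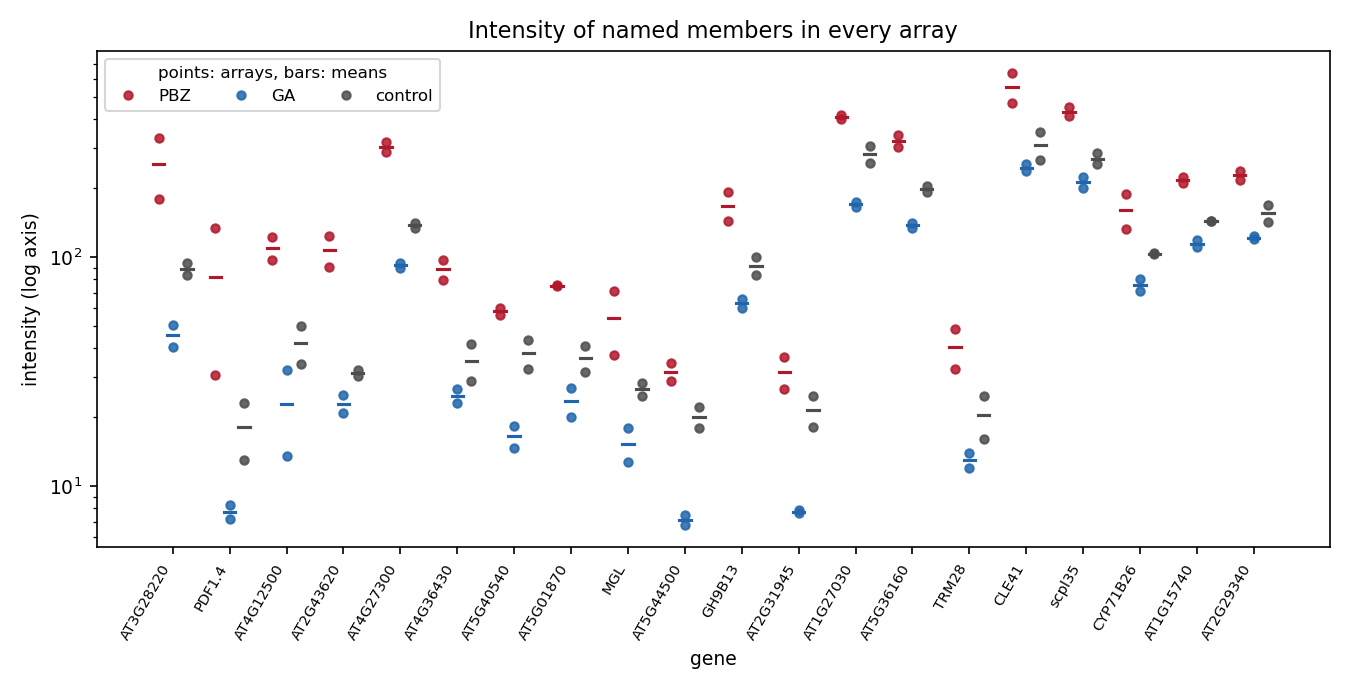
Intensity (log axis) of 20 named members in every array, with points for arrays and short bars for group means of 2 arrays, ordered by the PBZ minus GA difference. Each gene has PBZ on the left, GA in the middle and control on the right. The red points stand above the grey and the grey above the blue in each gene, and the PBZ pair of PDF1.4 (30.6 and 133.5) is the widest apart.

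Few relatives of these genes that carry a gene name shared the order, which 4.21% of all probe sets held. Few of any group of genes would thus be in it, and the counts below are a description. The 39 unnamed members could not be placed in a family. Among 19 measured CYP71B genes, CYP71B26 had the highest PBZ minus GA difference, with a family range of -0.58 to 0.97 and a median of 0.16, and 2 of the 19 were in the order PBZ above control above GA. The SCPL family of carboxypeptidase-like genes held 29 measured genes (-0.98 to 0.99, median -0.03), with scpl35 highest and 1 in that order. GH9B13 was highest of 15 family 9 hydrolases (-0.6 to 1.28, median 0.18), CLE41 of 6 CLE peptide genes (-0.46 to 1.12, median 0.23) and TRM28 of 14 TRM genes (-0.77 to 1.12, median -0.12). The member was in each of these 3 families the single measured gene in the order. As the members were taken for a large difference, their first place among relatives follows in part from how they were chosen.

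The PDF1 defensins were different, since all 3 measured genes were higher in PBZ than in GA and PDF1.4 had the smallest difference (2.11). PDF1.2b (AT2G26020) had 1800.1 and 1707.8 in PBZ, 181.9 and 241.3 in GA and 136.7 and 226.7 in control arrays. PDF1.2 (AT5G44420) had 751.2 and 1218.6 in PBZ, 139.2 and 130.8 in GA and 96.6 and 206.1 in control arrays. In both, GA and control arrays overlapped, so these genes stood high in PBZ without a step between control and GA. PDF1.2b and PDF1.2 passed limma's moderated test of PBZ against GA after Benjamini-Hochberg adjustment (log2 difference 3.01, adjusted p = 0.00887, and 2.74, adjusted p = 0.023). The probe set of PDF1.2b is of a kind that can take up signal from near-identical sequences.

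**Figure D4:**
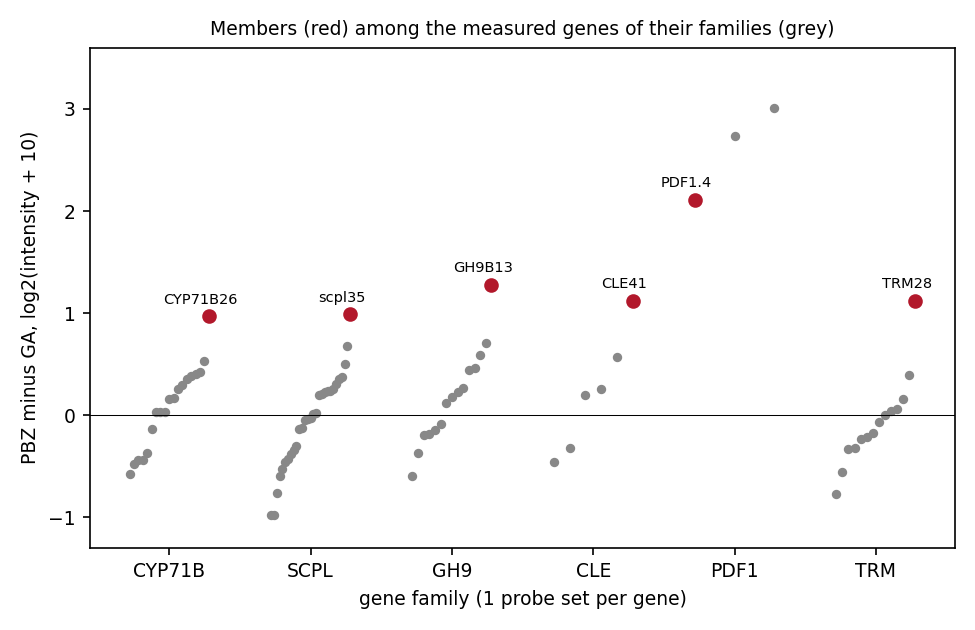
PBZ minus GA difference in log2(intensity + 10) for the measured genes of 6 families, 1 point per gene, sorted within each family, with members of the set in red and their relatives in grey. The red points top their family (CYP71B26 at 0.97, scpl35 at 0.99, GH9B13 at 1.28, CLE41 at 1.12 and TRM28 at 1.12), except PDF1.4, which at 2.11 is the lowest of 3 PDF1 genes.

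The genes known by locus code alone spanned the same range of patterns. AT3G28220 had the largest PBZ minus GA difference of any named member, 2.2 (SE 0.28), with 330.8 and 178.8 in PBZ, 50.4 and 40.6 in GA and 93.9 and 83.4 in control arrays. AT4G12500 had 97.3 and 122.3 in PBZ, 13.6 and 32.3 in GA and 34.3 and 50.1 in control arrays, a difference of 1.91 (SE 0.31). Its GA arrays were about as far apart as its PBZ arrays were from control (0.842 against a gap of 0.836), and the upper GA array nearly met the lower control array. GA minus control was -0.71, or -0.29 without GA replicate 1 and -1.13 without GA replicate 2. AT4G27300 was the tightest of the large differences, with 316.6 and 288.9 in PBZ, 94.7 and 89.7 in GA and 133.9 and 141.1 in control arrays, a difference of 1.61 (SE 0.12). Its widest replicate difference of 0.128 compares with gaps of 0.984 from control to PBZ and 0.459 from GA to control.

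AT4G36430 had 96.9 and 79.7 in PBZ, 23.0 and 26.5 in GA and 28.9 and 41.7 in control arrays, and AT5G01870 had 75.2 and 74.7 in PBZ, 20.1 and 26.9 in GA and 31.6 and 40.9 in control arrays. In both the PBZ pair stood well clear of the rest, by 0.795 and 0.735, and GA and control lay closer, with GA minus control in AT4G36430 at -0.37, or -0.57 without control replicate 1 and -0.16 without control replicate 2. AT5G40540, by contrast, had 56.0 and 59.8 in PBZ, 14.7 and 18.4 in GA and 32.6 and 43.3 in control arrays, with the wider gap (0.585) on the GA side. AT5G44500 had 28.8 and 34.4 in PBZ, 6.8 and 7.5 in GA and 22.1 and 17.9 in control arrays, where GA was again the pair set apart, at intensities under 10.

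In AT1G27030, AT5G36160, AT1G15740 and AT2G29340, brighter than most members, the replicates of a group were at most 0.232 apart. AT1G27030 had 399.3 and 418.2 in PBZ, 173.6 and 166.1 in GA and 257.9 and 304.7 in control arrays, a PBZ minus GA difference of 1.22 (SE 0.13) with the larger part (0.69) between control and GA. AT5G36160 had 303.3 and 340.2 in PBZ, 133.6 and 141.3 in GA and 192.8 and 204.6 in control arrays, a difference of 1.17 (SE 0.13). Both genes had gaps wider than any replicate difference on either side of control. AT1G15740, with 224.7 and 209.8 in PBZ, 110.2 and 118.2 in GA and 144.1 and 143.6 in control arrays, and AT2G29340, with 217.5 and 238.2 in PBZ, 123.3 and 119.8 in GA and 142.9 and 169.3 in control arrays, had smaller differences of 0.87 and 0.85. The other 14 locus-code genes were AT2G36970, AT3G22550, AT5G47610, AT2G40435, AT3G25870, AT2G37870, AT4G16750, AT2G18370, AT4G32920, AT1G53070, AT3G21600, AT5G62960, AT1G12630 and AT3G16660, with PBZ minus GA differences from 1.17 in AT2G36970 to 0.83 in AT3G16660.

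Among the unnamed members, 261768_at stood apart from all others, with 363.1 and 332.4 in PBZ, 15.3 and 13.8 in GA and 37.4 and 21.6 in control arrays. Its PBZ minus GA difference of 3.86 was made up of 3.21 above control and 0.66 below it. The next were 250083_at at 2.72 and 258791_at at 2.6. The probe set 258791_at, with 2062.1 and 2509.8 in PBZ, 389.9 and 346.8 in GA and 422.5 and 818.1 in control arrays, had a wide control pair whose lower array came near the GA arrays. The brightest member, 263046_at, had 2695.3 and 2540.8 in PBZ, 635.3 and 794.6 in GA and 854.0 and 1106.5 in control arrays. At the other end, 265249_at had the largest step below control, 1.05, with 38.3 and 32.5 in PBZ, 3.7 and 10.7 in GA and 29.0 and 21.0 in control arrays. Of the 73 members, 4 were on probe sets of the kind that can take up signal from several similar transcripts, and each of those was unnamed.

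In limma's fit across all 22746 probe sets, with Benjamini-Hochberg adjustment and an adjusted p under 0.05 as the threshold, 57 of 73 members were among those higher in PBZ than in GA, where 1.01% of all probe sets were, and 1.96% were lower. In PBZ against control 8 members were among the higher ones, against 0.233% of all probe sets (0.281% were lower), and AT2G43620 and AT4G27300 were those with a gene name. In GA against control 0 members passed, as did 0 of 22746 probe sets (0.0% in either direction); at an unadjusted p under 0.05 there were 45 members lower in GA, and 1078 probe sets higher (4.74%) and 853 lower (3.75%) over the array. Because the rule used these contrasts, the members' counts say nothing beyond how they were chosen. Fewer PBZ against GA calls were made when any 1 array was left out, control arrays included, though these do not enter that difference. Members and the other genes named here lost these calls when either GA array was left out. Each such fit leaves 1 array in a group and 2 residual degrees of freedom, and the cause was not tested. In PBZ against control 0 members passed without any 1 of the 6 arrays.

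No member was matched by symbol or synonym to the 14 pathway lists or the 8 lists of cell type markers. The lack of matches follows in part from the rule, since 7 of the 14 probe sets left out by name are on these lists. The annotation also covers the lists only in part, and unnamed members could not be matched. Which kinds of gene recur among the members is therefore not shown by these lists. Of 21 genes listed for gibberellin perception and response, 8 were measured, with median differences of 0.51 for PBZ against control, -0.32 for GA against control and 0.67 for PBZ against GA, and 4 were in the order PBZ above control above GA. The receptor gene GID1A (AT3G05120) had 200.7 and 182.4 in PBZ, 84.6 and 91.7 in GA and 115.0 and 104.7 in control arrays. GID1B (AT3G63010), a receptor too, had 42.4 and 52.9 in PBZ, 4.4 and 9.2 in GA and 10.6 and 16.4 in control arrays. GID1A, GID1B and XERICO passed the limma test as higher in PBZ than in GA, 0 genes of the list passed as lower, and 0 passed in either comparison with control. None of the 22 genes listed for gibberellin synthesis and breakdown had a probe set that names them.

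Among genes of endoplasmic reticulum bodies, which store beta-glucosidase, and of jacalin-type lectins, 7 of 17 were measured. Of these, 6 were in the same order as the members and 6 passed as higher in PBZ than in GA. NAI1 and JAL34 are the 2 of these in that order that the rule's list of left-out genes does not name. NAI1 (AT2G22770), the transcription factor of these bodies, had 21.1 and 19.4 in PBZ, 4.6 and 0.6 in GA and 5.0 and 9.4 in control arrays and so missed the least PBZ mean. JAL34 (AT3G16460), a jacalin-related lectin, had 115.1 and 80.4 in PBZ, 29.5 and 29.2 in GA and 32.8 and 42.0 in control arrays and lay 0.26 below control in GA, under the least step. Of 7 measured jasmonate genes, 3 passed as higher and 1 as lower in PBZ than in GA, 0 were in the order of the members, and the list median for GA against control was -0.07.

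Around the members with a symbol, few partners were measured. Of 9 genes listed with the CLE41 peptide and its receptor 3 were measured, of 21 for methionine metabolism 1 (CBL, an enzyme of methionine synthesis, with a PBZ minus GA difference of 0.04), of 24 for cortical microtubules 8 and of 9 for cellulose synthesis 0. None of these 12 genes passed the limma test in any comparison. The median PBZ minus GA difference was 0.26 for the CLE41 list and -0.17 for the microtubule list, against 0.047 over all probe sets.

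The 34 named members were spread over the genome, with 6, 7, 7, 6 and 8 on chromosomes 1 to 5 by locus code (17.6%, 20.6%, 20.6%, 17.6% and 23.5%), where all probe sets of 1 gene fell at 25.8%, 16.5%, 20.5%, 14.7% and 22.5%. No 2 of them lay within 10 genes of each other in the RefSeq gene order. The 39 unnamed members have no place in that order, so neighbours among them could not be counted. Of the genes directly next to a named member, 40 had a probe set that names them alone, beside 30 members. Their PBZ minus GA differences ran from -0.22 to 0.88 with a median of 0.08, 0 met the rule and 0 passed the limma test of PBZ against GA. In 3 of the 40 the arrays stood in the order of the members, as they did in 4.21% of all probe sets. These 3 were AT4G36440, AT3G24760 beside CLE41, and AT2G18360, which missed the set through its PBZ mean of 26.55 and lies beside AT2G18370. CYP71B34, next to CYP71B26, differed by 0.03 between PBZ and GA.

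How many probe sets met the rule, and which, depended on single arrays. Leaving out 1 array at a time gave sets of 67 to 111 probe sets, the largest without GA replicate 2, and between 55 and 63 of the 73 members were in each. A member could leave the sets without 1 array only through the conditions of size, since the order of its arrays was fixed by the rule. A pseudocount of 1 widens every difference and so could not drop a member, and the sets with it and with the floor of 10 held all 73. In all 6 sets without 1 array 28 members were found, in all 5 sets made with another pseudocount, a floor or another scaling 29, and in both kinds 22. Of these 22, 10 name a gene, among them PDF1.4, MGL, GH9B13, AT3G28220, AT4G27300, AT5G40540, AT1G27030 and AT5G36160, and 12 are unnamed. CLE41, TRM28, scpl35 and CYP71B26 each dropped out of at least 1 of those sets.

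**Figure D5:**
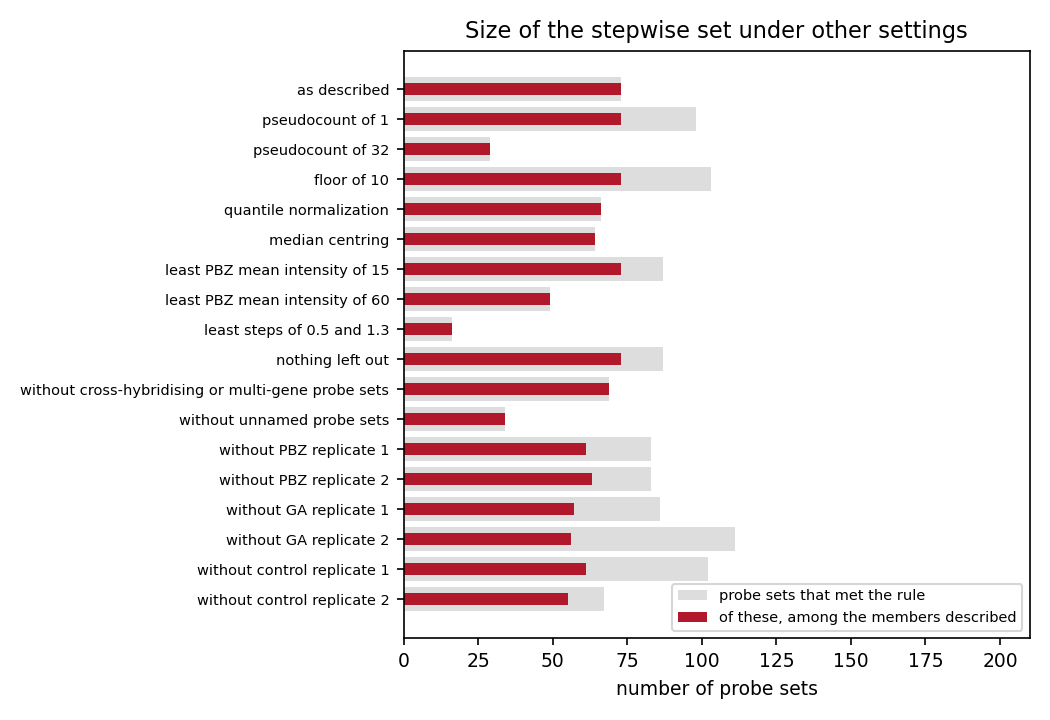
Number of probe sets that met the rule under each setting except the order of the arrays without the size of the steps (pale bars, starting at 0) and how many of them are among the 73 members (red bars). Sizes run from 16 with steps of at least 0.5 and 1.3 to 111 without GA replicate 2, and the red bars of the sets that leave out 1 array lie between 55 and 63.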

How the data were processed

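The samples were RNA of whole rosettes on 6 arrays, 2 in each of 3 groups, grouped by sample title. Per the labels the molecule was total RNA, but the extraction protocol also covers RNA purified with the tagged ribosomes, so the fraction hybridised stays uncertain. The deposited table holds linear intensity values, 1 per probe set and array, with a mean after trimming 2% at each end of 100.01 in every array. The submitters' processing notes name RMA and affy, without versions. RMA output is on a log2 scale and this table is not, so the steps behind it are not given in the sources used here.

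Of 22810 probe sets, 64 controls were left out. A pseudocount of 10 was added before log2, and no other normalization was applied. The tests were run with limma 3.58.1 in R 4.3.3, fitting all 6 arrays together with a mean per group (3 residual and 3.07 prior degrees of freedom), two-sided, with Benjamini-Hochberg adjustment over 22746 probe sets and a threshold of 0.05; the median SE of a log2 difference was 0.16. The p-values measure only the spread between these arrays. The pipeline was tested on simulated data.

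The members, lists and naming rule were chosen with earlier results of these data known. Among members of 1 gene, the 12 with the largest PBZ minus GA difference and the 8 with the highest PBZ mean are described by array, with the 7 that have a symbol, 20 in all. Families and step groups were chosen after the values were seen. Symbols and gene order came from the platform annotation and the RefSeq table (TAIR10.1), with no coordinates used. A probe set was left out of the set when a gene it names is among the 15 listed or belongs to the XTH, EXPA or UGT families by symbol or synonym. Probe and promoter sequences were not used here. The main fit did not pair the arrays by replicate number. Deviations from the group means of same-numbered arrays correlated at -0.001, 0.015 and 0.031. These values show no shared deviation across all probe sets but cannot tell whether same-numbered arrays were handled together. Alternatives were other pseudocounts, a floor, quantile normalization, median centring, other thresholds of the rule, an intensity trend, a replicate block, a filter on the 40% dimmest probe sets and leaving out each array.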

Additional observations from a re-analysis of the deposited data

How the results depend on the processing

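The set of 73 probe sets shrank to 29 with a pseudocount of 32, 16 with steps of at least 0.5 and 1.3 and 34 without unnamed probe sets, grew to 703 with no minimum on the steps (the order of the arrays, the least PBZ mean and the left-out genes kept), and numbered 67 to 111 when 1 array was left out. Under the other settings it held 49 to 103 probe sets (98 with a pseudocount of 1, 103 with a floor of 10, 66 after quantile normalization and 64 after median centring). No log2 difference of a named member or median over the members changed sign under the 11 settings in which it was recomputed, with 105 values each. Without 1 array, with another pseudocount or with the floor this was fixed in advance, since the rule had set the order of the arrays. Only quantile normalization and median centring could have changed a sign. Under these, 0 values moved by more than the spread between replicates. Such moves numbered 26 with a pseudocount of 1, 47 with one of 32, 34 with the floor and 8 to 22 without 1 array.

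The counts of limma calls depended heavily on the settings. PBZ against control gave 117 calls, but 333 with an intensity trend, 0 with a pseudocount of 1, 248 with one of 32, 562 without the dimmest 40% and 0 to 4 without 1 array. GA against control gave 0 calls, but 51 with the trend, 4 with the floor, 201 without the dimmest 40%, and 0 without any 1 array. PBZ against GA gave 675 calls, but 1040 with the trend, 94 with a pseudocount of 1, 292 with the floor, 1364 without the dimmest 40% and 0 to 284 without 1 array, with 0 without either GA array. With a pseudocount of 32, PBZ against GA gave 992 calls, of which 369 were higher in PBZ. With the replicate block the counts were 47 for PBZ against control, 1 for GA against control and 391 for PBZ against GA, and 3, 0 and 37 of the members were among them. Against 57 members higher in PBZ than in GA, 7 passed with a pseudocount of 1, 61 with one of 32, 11 with the floor, 58 with the trend, 73 without the dimmest 40% and 0 to 27 without 1 array. Against 8 higher in PBZ than in control, the counts were 0, 15, 1, 21 and 35 in the same settings and 0 without any 1 array; in GA against control they were 0, 0, 0, 1 and 6. Removing an array leaves 2 residual degrees of freedom, and the cause was not tested for this or the other settings. The split of PBZ against control calls was 53 higher and 64 lower, against 58 and 41 with the floor, and that of PBZ against GA was 230 and 445, against 134 and 158 with the floor.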
